A study of Mus musculus with 2 samples.

Results

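The 7 genes described here, Gata6, Gata4, Sox17, Foxa2, T, Eomes and Pax6, encode transcription factors of the germ layers of the mouse embryo or of lineages formed from them. Each gene span in the mouse build mm9 was extended by 20 kb on both sides, and all peaks of the Bio-Tdg list that overlapped such a window by at least 1 bp were taken. This gave 45 peaks of the 72970 in the list, over 441.9 kb of sequence. The series held 2 ChIP libraries of E14, an established mouse embryonic stem cell line, with no treatment named in the labels. One library came from cells labelled Bio-Tdg, which carry a biotin-tagged Tdg (n = 1), and the other from BirA mock cells (n = 1), of which no file was analysed here. All values therefore come from 1 library of 1 cell line, without a replicate error and without a background measured in the mock, and no test between samples was made. How strongly the tagged protein is expressed relative to the cells' own Tdg is not given in the sources used here.

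Tdg is thymine DNA glycosylase, which cuts out formylcytosine and carboxylcytosine, made from methylcytosine by the Tet enzymes, so that an unmethylated cytosine can be put back by base excision repair. In Biotag ChIP the tagged protein is biotinylated in the cell by the bacterial ligase BirA and pulled down with the bound DNA on streptavidin. In embryonic stem cells the promoters of many germ-layer regulators are known as bivalent, which means that they carry an activating and a repressive histone mark at the same time while the gene is silent or nearly so, and many lie in CpG-rich sequence. Neither histone marks nor transcripts were measured in the file used here, so the bivalent state of these 7 genes is background and was not checked.

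Over 6 of the 7 genes a Bio-Tdg peak lay across the 5′ edge of the gene span, where transcription begins in the direction of the gene. The share of all mouse genes with such a peak was not computed, since no mm9 annotation was used here, so whether 6 of 7 is high or low for this list cannot be said. To show the sequence at these starts, the RefSeq promoter windows of T, Eomes, Foxa2 and Pax6 are printed below, each 250 bases before to 50 after an annotated start, 5′ to 3′ on the strand of the gene, with every CG in capitals as the dinucleotide that carries methylation. Where RefSeq lists several starts, the first in the direction of transcription is shown. RefSeq windows for Gata6, Gata4 and Sox17 were not used. The positions of these windows are in GRCm38.p6 and cannot be set against the mm9 positions of the peaks.

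T (chr17:8434173-8434472, plus strand): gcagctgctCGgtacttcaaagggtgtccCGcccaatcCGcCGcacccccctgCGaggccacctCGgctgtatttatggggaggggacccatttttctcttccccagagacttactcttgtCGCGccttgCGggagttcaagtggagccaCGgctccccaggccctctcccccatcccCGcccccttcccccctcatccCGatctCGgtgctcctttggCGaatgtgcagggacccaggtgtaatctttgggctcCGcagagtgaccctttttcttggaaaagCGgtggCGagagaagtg
Eomes (chr9:118477939-118478238, plus strand): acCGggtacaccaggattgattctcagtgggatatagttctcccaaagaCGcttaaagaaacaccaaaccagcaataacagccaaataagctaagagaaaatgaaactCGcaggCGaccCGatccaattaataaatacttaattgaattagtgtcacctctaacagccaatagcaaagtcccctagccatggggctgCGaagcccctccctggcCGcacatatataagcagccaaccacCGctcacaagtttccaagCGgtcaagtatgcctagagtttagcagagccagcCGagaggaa
Foxa2 (chr2:148046920-148047219, minus strand): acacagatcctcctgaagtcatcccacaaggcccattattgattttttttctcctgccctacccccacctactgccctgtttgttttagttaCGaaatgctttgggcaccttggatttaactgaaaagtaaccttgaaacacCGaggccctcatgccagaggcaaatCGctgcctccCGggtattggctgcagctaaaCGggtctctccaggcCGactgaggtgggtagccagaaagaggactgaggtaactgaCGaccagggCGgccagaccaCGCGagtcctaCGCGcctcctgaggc
Pax6 (chr2:105668646-105668945, plus strand): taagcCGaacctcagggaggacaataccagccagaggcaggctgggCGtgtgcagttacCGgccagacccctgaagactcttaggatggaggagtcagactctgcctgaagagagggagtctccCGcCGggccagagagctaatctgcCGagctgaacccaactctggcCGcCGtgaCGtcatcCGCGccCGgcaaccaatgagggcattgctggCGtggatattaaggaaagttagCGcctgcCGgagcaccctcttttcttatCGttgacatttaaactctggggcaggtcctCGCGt

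The window of T held 17 CG, that of Pax6 18, that of Foxa2 12 and that of Eomes 10. Over all 32851 RefSeq promoter windows of the same length the median was 7 CG, with quartiles of 3 and 20, so these 4 lay between the median and the upper quartile. At least as many CG as in Eomes were found in 43.5% of all windows, and at least as many as in Pax6 in 29.7%. Foxa2 has another annotated start 1021 bp further on, whose window held 23 CG, a number reached by 21.5% of all windows, and a further start with 13 CG (37.9%). The second annotated start of Pax6 had 16 CG (33.0%). The GC box GGGCGG, which itself holds a CG and was searched on both strands, was present 2 times in the T window and 1 time in the first Foxa2 window, and was not found in those letters for Eomes and Pax6. It occurred in 35.7% of all windows. These are descriptions of reference letters and say nothing on binding.

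Bio-Tdg peaks covered 13.6% of the bases in the 7 windows, or 60.1 kb. Over chromosomes 1 to 19 and X, each measured between its outermost peaks, they covered 3.06%, so the share in the windows was 4.44 times as high. Against the 6 chromosomes that carry the genes the ratio was 4.54. In numbers, the windows held 10.2 peaks per 100 kb against 2.84 over chromosomes 1 to 19 and X, a ratio of 3.59. Each of the 7 windows lay above 3.06%, from 2.20 times that share at Gata6 to 7.80 times at Pax6. The share depends on the flank chosen: it was 21.2% in the gene spans alone, with 25 peaks, and 8.14% with flanks of 50 kb.

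As a description of how often such windows occur, each chromosome from 1 to 19 was laid out in adjoining tiles of the length of each window. Of the tiles as long as the Pax6 window, 4.20% held at least as many peaks and 1.75% at least as many covered bases. For Eomes these shares were 8.05% by peaks and 3.21% by bases, and for Foxa2 5.11% and 4.57%. For Gata4 they were 11.7% and 8.41%, and for Sox17 19.3% and 10%. For T they were 14.8% and 12.1%, and for Gata6 21.8% and 16.2%. The windows thus ran from among the most densely covered stretches of their length, at Pax6 and Eomes, to densities met in more than 1 in 10 tiles at T and Gata6. The tiles include gene-poor sequence and assembly gaps, and were not restricted to genes.

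**Figure D1:**
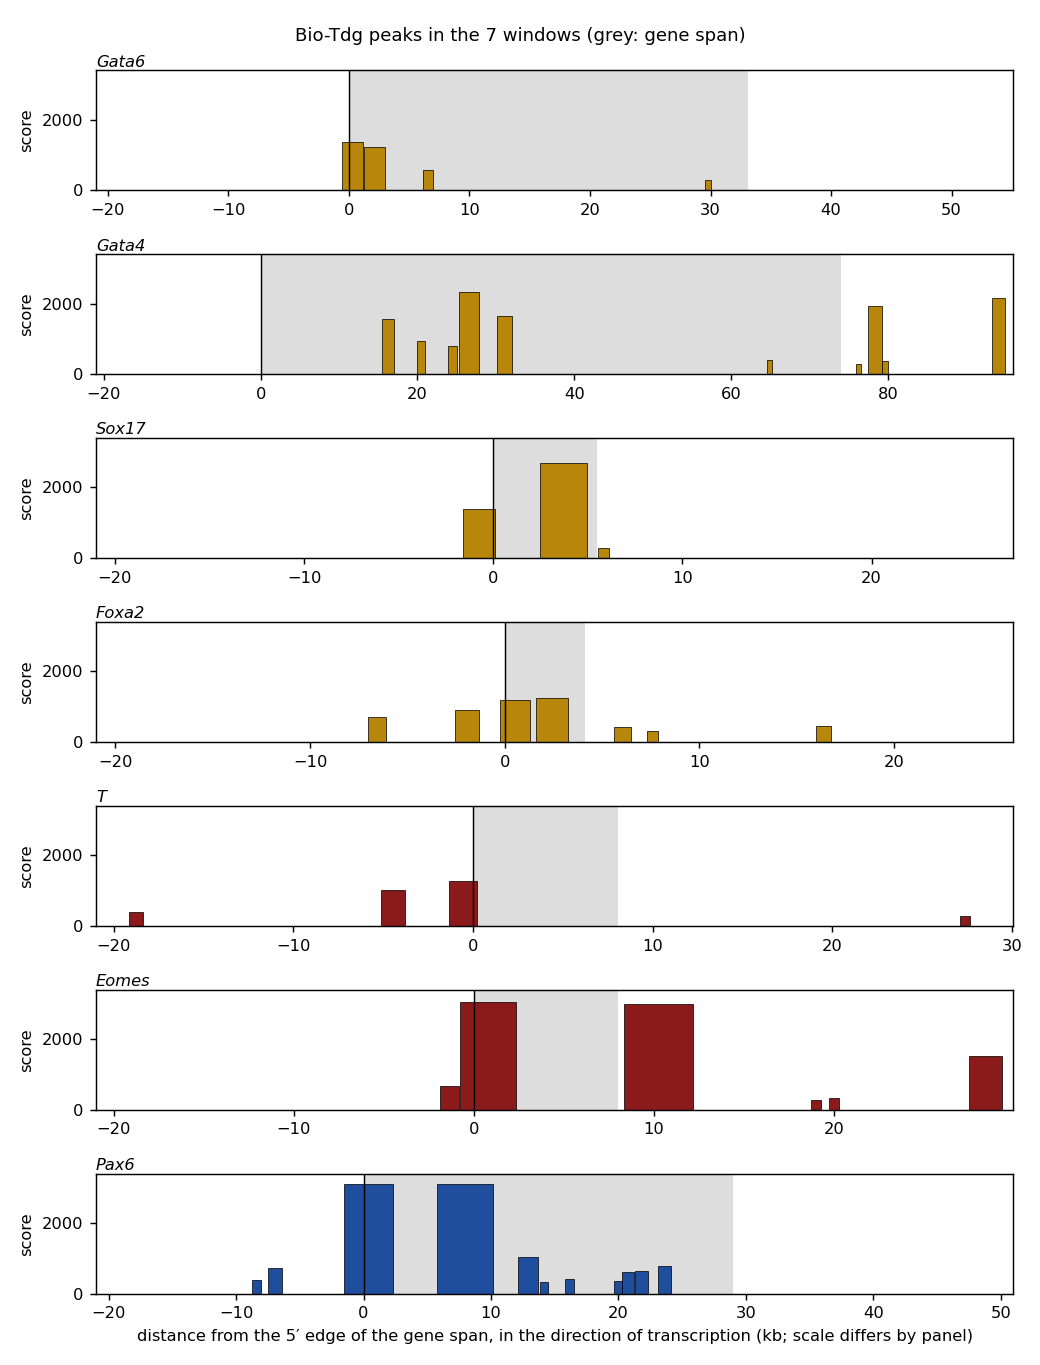
Bio-Tdg peaks in the 7 windows, each panel 1 gene. The x axis is the distance in kb from the 5′ edge of the gene span in the direction of transcription, the y axis the peak score, each bar 1 peak drawn at its width, and grey the gene span; colours mark endoderm (ochre), mesoderm (red) and neural (blue) genes. A peak lies over the 5′ edge of 6 genes, and in Gata4 the first peak lies 15521 bp inside the span.

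Grouped by the lineage each gene is best known for, the endoderm regulators were Gata6 and Gata4, zinc-finger factors of the primitive endoderm and later of heart and gut, Sox17, an HMG-box factor of the endoderm, and Foxa2, a forkhead factor that opens chromatin in endoderm, node and floor plate. Their 4 windows held 24 peaks that covered 10.7% of the bases, with a range from 6.74% at Gata6 to 17.1% at Foxa2. In what follows, reads per peak are whole numbers recovered from the authors' score and the width, with an exact 95% Poisson interval that covers counting error only, because PCR copies of a molecule were not told apart.

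Gata6 (chr18:11052500-11085640, plus strand) had 4 peaks, all touching the gene span. The position of this span could not be checked: it starts 10 bp from the RefSeq start in GRCm38.p6, while the other 6 spans start 9928 bp or more from theirs, and each Gata6 value rests on it. Without Gata6, 41 peaks remained in 6 windows, 15.0% of the bases were covered, and 5 of 6 genes had a peak over the 5′ edge. The peak over the 5′ edge, chr18:11051947-11053685, ran from 553 bp upstream to 1185 bp inside the gene, was 1739 bp wide and had a score of 1364 and 103 reads (84.1 to 125). After a gap of 79 bp it was followed by chr18:11053765-11055504, with 1740 bp, a score of 1210 and 94 reads (75.96 to 115). These 2 peaks form a nearly continuous stretch of 3558 bp at the start of the gene. The third peak, chr18:11058615-11059512, was 898 bp wide with a score of 579 and 45 reads (32.8 to 60.2). The last, chr18:11082006-11082556, began 29506 bp inside the gene and was 551 bp wide, with a score of 290.02 and 23 reads (14.6 to 34.5). In Gata6 the score and the reads were thus lower at each peak farther from the start. The first pair had nearly the same width, and the intervals of their read numbers overlap. Outside the span, peaks covered 2.77% of the upstream flank, all of it the overhang of the first peak, and 0% of the downstream flank.

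Gata4 (chr14:63817000-63891000, minus strand) was the exception at the 5′ edge. The nearest of its 10 peaks, chr14:63873994-63875479, began 15521 bp inside the span, was 1486 bp wide and had a score of 1560 and 110 reads (90.4 to 133). It opened a group of 5 peaks that reached to 32015 bp from the edge. The widest and highest-scoring peak of the window, chr14:63863105-63865727, belonged to this group, with 2623 bp, a score of 2333 and 172 reads (147 to 200). The span is that of the longest extent of the gene, and where shorter transcripts of Gata4 begin was not determined here, so it is not known whether this group lies at a start. The other 3 peaks of the group were 1090 to 1816 bp wide. The remaining peak of the gene, chr14:63825772-63826426, stood apart further down and was 655 bp wide. Downstream, 4 peaks covered 19.1% of the flank, among them chr14:63811766-63813580 with 1815 bp and 136 reads (114 to 161). The outermost, chr14:63796108-63797787, reaches past the window's end and had the highest read density of the 42 peaks with recovered reads, 86.9 reads per kb. No peak lay in the 20 kb upstream of the Gata4 span.

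Sox17 (chr1:4481000-4486500, minus strand) is a short gene of 5.50 kb, and 46.2% of it was covered. The peak over its 5′ edge, chr1:4486403-4488115, lay mostly upstream, from 1615 bp before the edge to 97 bp inside, with a width of 1713 bp, a score of 1388 and 104 reads (84.98 to 126). The edges of the Sox17, Gata4 and Pax6 spans are rounded more coarsely than those of the other 4 genes, so distances there are approximate, and the overlap of 97 bp at Sox17 is within that rounding. The peak with the highest score of the 24 in the endoderm windows was chr1:4481563-4484003, inside the gene, with 2441 bp, a score of 2695 and 189 reads (163 to 218). Of the whole list, 4.53% of peaks were at least as wide as this peak and 4.55% had at least its score. The third peak, chr1:4480404-4480945, lay just past the 3′ edge with 542 bp, a score of 276 and 22 reads (13.8 to 33.3). All the Sox17 peaks therefore lay within 2 kb of the gene, and the rest of its flanks held none.

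Foxa2 (chr2:147868570-147872710, minus strand), the shortest span of the 7 with 4.14 kb, had the largest share of its gene body covered, 71.4%. The peak over the 5′ edge, chr2:147871387-147872968, reached from 258 bp upstream to 1323 bp inside and had a width of 1582 bp, a score of 1197 and 91 reads (73.3 to 112). The other peak in the gene, chr2:147869451-147871084, was the widest and highest-scoring of the window, with 1634 bp, a score of 1253 and 95 reads (76.9 to 116). The intervals of these 2 read numbers overlap, and a gap of 302 bp parts the peaks. The Foxa2 promoter printed above belongs to the first annotated start of the gene. Of the other 5 peaks, 2 lay upstream and 3 downstream, with widths of 553 to 1221 bp.

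The mesoderm regulators were T, also known as Brachyury, the T-box factor of primitive streak and notochord, and Eomes, a T-box factor of the streak, the endoderm precursors and the trophoblast. Their 2 windows held 10 peaks and differed in how much was covered, 8.86% at T and 19.97% at Eomes.

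T (chr17:8627280-8635370, plus strand) had 4 peaks, of which 1 touched the gene. That peak, chr17:8625925-8627522, ran from 1355 bp upstream to 242 bp inside, and was 1598 bp wide with a score of 1262 and 95 reads (76.9 to 116). It left the gene body of T almost bare: 3.003% of the span was covered, the lowest share of the 7 genes and close to the 3.06% of the chromosomes. Upstream lay chr17:8622161-8623469, with 1309 bp, a score of 1007 and 76 reads (59.9 to 95.1). Also upstream was chr17:8608133-8608926, with 794 bp, a score of 389 and 32 reads (21.9 to 45.2). Downstream lay chr17:8654365-8654922, with 558 bp, a score of 289 and 23 reads (14.6 to 34.5). The upstream flank of T, with 17.3% covered, was the most covered upstream flank of the 7 windows. That of Pax6 was close, at 16.5%, and its edge is coarsely rounded, so this rank is not certain.

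Eomes (chr9:118387280-118395270, plus strand) had 6 peaks. The peak over its 5′ edge, chr9:118386510-118389613, reached from 770 bp upstream to 2333 bp inside, with 3104 bp and a score of 3067, too high for reads to be recovered. Of the whole list, 1.63% of peaks were at least as wide. Another peak, chr9:118385377-118386463, ended 46 bp before it, with 1087 bp and 53 reads (39.7 to 69.3), so that both together span 4237 bp around the start. The widest peak of the window, chr9:118395654-118399434, began just past the 3′ edge of the gene and was 3781 bp wide, with a score of 3001 and 228 reads (199 to 259.6). Of the whole list, 0.669% was at least as wide. Between these large peaks the body of Eomes held no further peak, and the other 3 peaks, all downstream, were 543, 575 and 1841 bp wide. The peak of 1841 bp reaches past the window's end. The Eomes window was thus covered mainly by 1 wide peak at each end of the gene.

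Pax6 (chr2:105508000-105537000, plus strand), a paired-box and homeodomain factor of the eye, forebrain and spinal cord, stood for the neural lineage. Its window had the most peaks, 11, and the highest share of covered bases, 23.9%. The peak over the 5′ edge, chr2:105506497-105510287, ran from 1503 bp upstream to 2287 bp inside and was 3791 bp wide. The widest of the 45 peaks, chr2:105513768-105518155, followed 3480 bp further on inside the gene, with 4388 bp, and 0.318% of the list was at least as wide. Both had the score of 3100, which 1649 peaks of the list share and which does not rank them, and no reads were recovered for either. The other 7 peaks that touched the gene were smaller. They had 26 to 82 reads and widths of 634 to 1589 bp, and the last ended 24127 bp from the start. A run of 4 of them, parted by gaps of 20, 84 and 773 bp, made up 4467 bp. Upstream lay 2 peaks of 707 and 1089 bp, and the downstream flank held none. With these small peaks beside the large pair, the Pax6 window had the lowest median score of the 7, 659, and the highest coverage.

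**Figure D2:**
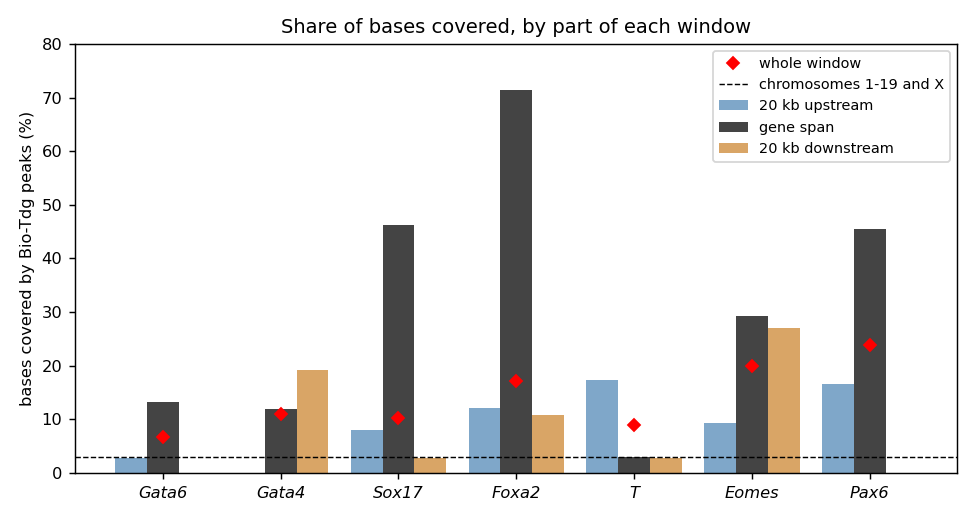
Percentage of bases covered by Bio-Tdg peaks in the 20 kb upstream, the gene span and the 20 kb downstream of each gene (bars), in the whole window (diamonds) and over chromosomes 1 to 19 and X (dashed line, 3.06%). The gene span of Foxa2 reaches 71.4%, and that of T, at 3.003%, lies at the dashed line.

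Ordered by the share of the window covered, Pax6 (23.9%) came first, then Eomes (19.97%), Foxa2 (17.1%), Gata4 (11.04%), Sox17 (10.3%), T (8.86%) and Gata6 (6.74%). With a single library there is no spread against which neighbours in this order could be told apart. The order is not that of peak numbers: Gata4 had 10 peaks and Sox17 3, at nearly the same coverage. The Gata4 window is 114 kb long and that of Sox17 45.5 kb, with 8.77 and 6.59 peaks per 100 kb and median widths of 1290.5 and 1713 bp. Gata4 has the longest span of the 7, 74.0 kb, and 11.8% of it was covered. Over the 7 genes together, 25 of the 45 peaks touched a gene span, and 21.2% of the bases of the spans were covered, against 9.44% of the upstream and 8.91% of the downstream flanks. Upstream was the more covered side at 5 genes, and downstream at Gata4 and Eomes. At Gata6 and Sox17 the covered upstream bases were only the overhang of the peak over the 5′ edge. At Foxa2 the sides were close, 12.2% upstream and 10.7% downstream.

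The 45 peaks had a median width of 1089 bp, with quartiles of 695 and 1713 bp, and the median of the whole list was 850 bp. Their median score was 796, with quartiles of 389 and 1388, against 553 in the list. Intervals for these medians, taken over the 45 peaks, ran from 834 to 1589 bp in width and from 443 to 1210 in score. Both hold the median of the list. They treat the peaks as independent, but the peaks come from the same library and often lie close together in the windows. The intervals therefore cannot decide whether the member medians differ from those of the list. A score of at least 1000 was reached by 19 of the 45 peaks, or 42.2%, and by 28.2% of the list. Of the 45, 4 peaks, or 8.89%, were wider than 3 kb against 1.92% of the list. The 4 are the 2 large peaks of Eomes and the 2 of Pax6. The 42 peaks with recovered reads had a median of 54.5 reads against 41 in the list, and a median density of 52.2 reads per kb against 49.5. In proportion, the member medians of width and reads lay further above those of the list than the median of reads per kb did. The read values leave out 3 peaks whose scores were too high for recovery, and no interval was taken for them. At the other end, the narrowest member, in the Gata4 window, was 528 bp wide, and the lowest score, 276, lay just above the lowest of the list, 258.3. Width and score moved together in the 45 peaks as in the list, with Spearman's rho of 0.982 and 0.972, given as a description because the score is computed from reads and width of the same library.

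**Figure D3:**
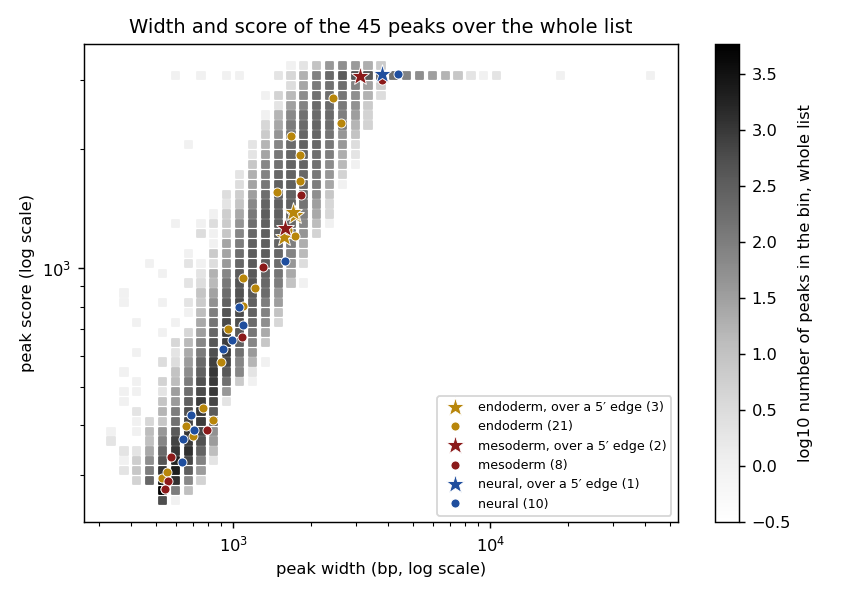
Width (x axis, bp) and score (y axis) of the 45 peaks, both on log scales, over the binned whole list (grey, darker with more peaks). Stars are the 6 peaks over a 5′ edge and circles the other 39, coloured by germ layer with the number of each; the stars lie at widths of 1582 bp and above.

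The peaks over the 5′ edges were wide. All 6 were wider than 1.5 kb, with a range of 1582 to 3791 bp and a median of 1726 bp. A fixed base is more likely to fall in a wide peak than in a narrow one, so the share to set beside these 6 is that of covered bases: 38.7% of all bases covered by the list lie in peaks wider than 1.5 kb, against 19.1% of the peaks. The other 39 member peaks had a median of 987 bp, and 11 of them were wider than 1.5 kb. The scores of the 6 ran from 1197 at Foxa2 to 3100 at Pax6, with a median of 1376. Those of the other 39 ran from 276 to 3100, with a median of 671. Score moved with width in these peaks, so the limit given for width holds for the scores too. The 4 edge peaks with recovered reads, at Gata6, Sox17, Foxa2 and T, had between 91 and 104 reads with overlapping intervals, and 57.5 to 60.7 reads per kb. These 4 also had similar widths, from 1582 to 1739 bp. The edge peaks of Eomes and Pax6 were wider than these 4. At T most of the peak lay upstream, and at Gata6, Foxa2, Eomes and Pax6 most of it lay inside the gene. At Sox17 most of it lay upstream of the edge used here, but the span is 998 bp shorter than in RefSeq, so that side is not certain.

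Neighbouring peaks in the windows often lay close together. Of the 38 gaps between neighbours within a window, 14, or 36.8%, were under 1 kb, and 6, or 15.8%, were under 200 bp. Over the whole list 18.8% of gaps were under 1 kb and 6.09% under 200 bp. The comparison favours short gaps in the windows, because gaps that cross a window's end are left out there. The windows also held 3.59 times as many peaks per 100 kb as chromosomes 1 to 19 and X. Denser peaks have shorter gaps, and the short gaps were not separated from that density. At Gata6, Foxa2 and Eomes the peak over the 5′ edge had a neighbour within 1 kb, and joined they measured 3558, 3518 and 4237 bp. Joined across gaps under 1 kb, the 45 peaks became 31, and the covered share of the windows moved from 13.6% to 14.8%.

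**Figure D4:**
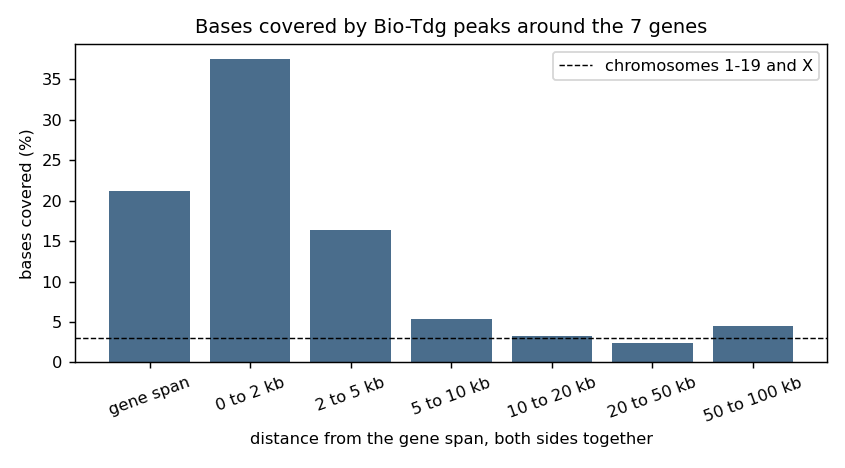
Bases covered by Bio-Tdg peaks (y axis, %) in the 7 gene spans and in bands of distance from the span, both sides and all genes together (x axis, kb). The band of 0 to 2 kb has the highest value, 37.5%, and the dashed line marks 3.06% for chromosomes 1 to 19 and X.

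Coverage was concentrated on the genes and their nearest surroundings. In bands of distance from the gene span, chosen after the values had been seen, 37.5% of the bases within 2 kb were covered and 16.4% of those from 2 to 5 kb. The share was 5.43% from 5 to 10 kb and 3.22% from 10 to 20 kb, the latter close to the 3.06% of the chromosomes. Within 2 kb every one of the 7 genes had at least 1 covered base, and in each band from 2 to 50 kb 4 of them did. At Gata4 the bases within 2 kb were only the last ones of chr14:63814500-63815027, beside a span with coarsely rounded edges. No share over all genes was computed to set beside these counts. Between 20 and 50 kb 2.41% was covered, and between 50 and 100 kb 4.46%. Bands farther out can hold other genes, which were not annotated here.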

How the data were processed

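The values come from the authors' deposited list of Bio-Tdg peaks, 1 row per peak. Reads were processed in mm9 with MACS 1.4.1, Bowtie 0.12.7 and CASAVA 1.8, per the submitters' processing notes, which give no roles. Peak threshold and control: not given in the sources used here. The deposited score of a peak is, in the output of this MACS series, −10 times the log10 of its p-value. Whole reads per peak were read back from score and width with 1 fitted rate (1.13 reads per kb). This succeeded within 0.01 score units for each of the 70884 peaks below a score of 3050. The scores of these peaks thus follow 1 rate for the whole list, without a background that varies from peak to peak. The recovered reads would be 1 too low in every peak if MACS had counted the probability inclusively. On 4978 simulated peaks, 100% of the reads were recovered. Those scores were made with the same formula and 1 rate, so this checks the arithmetic only. When the simulated rate varied by peak, 0.1006% of the scores came within 0.01 score units. The depth of the library is not known.

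Gene spans in mm9 came with the choice of the 7 genes and are rounded by up to about 1 kb. Their lengths differ from those in RefSeq GRCm38.p6 by 14 to 48 bp for Gata6, T, Eomes and Foxa2, and by 1202, -998 and -514 bp (span minus RefSeq) for Gata4, Sox17 and Pax6. Strands of Foxa2, T, Eomes and Pax6 were taken from RefSeq, and those of Gata6, Gata4 and Sox17 from general knowledge. A peak counted as at the 5′ end within 1 kb of the edge of the span. All peaks were named in windows with at most 5 peaks, and otherwise those nearest the 5′ edge, the widest and the highest-scoring. Others named in the text were chosen after their values were seen. The genes, windows and comparisons were chosen with earlier results of these data known. Alternatives were other flanks, a minimum score of 500, peaks joined across gaps under 1 kb, midpoints in place of overlap, equal weight to windows and leaving out each window. The scripts ran on Python 3.11.15 (pandas 2.3.3, numpy 2.4.6, matplotlib 3.10.9 and scipy 1.17.1).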

Additional observations from a re-analysis of the deposited data

How the results depend on the processing

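The share of bases covered was 13.6% in the windows with flanks of 20 kb, 21.2% in the gene spans alone, 18.4% with flanks of 10 kb, 8.14% with 50 kb and 9.17% in the 20 kb flanks alone, the last added after seeing the data. It was 11.3% for peaks with a score of at least 500 and 14.8% after merging peaks less than 1 kb apart, and ran from 11.7% to 15.0% when each window was left out in turn. Each of these lies above the 3.06% of the chromosomes, though a score threshold or merging was not applied to that value. The number of peaks fell from 45 to 25 in the gene spans alone and to 29 at a score of at least 500. The latter threshold raised the median score to 1253 and the median width to 1598 bp by its own construction, and merging raised the width to 1713 bp. The number of genes with a peak at the 5′ edge was 6 at a distance of 0, at 5 kb, at a score of at least 500 and after merging. It was 5 of 6 without Gata6, added after seeing the data, and no share over all genes was computed to set beside it. No paired analysis was possible because a single library was analysed. The fewest reads recovered in any peak were 21, so a stretch without a peak does not show missing binding.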
